A study of Mus musculus with 8 samples.

Results

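3T3-L1 preadipocytes, a mouse fibroblast line that can become fat cells in culture, were compared as hanging-drop spheroids (3D) and as flat cultures (2D), both without adipogenic induction. This comparison rests on 4 of the 8 libraries of the series, 2 spheroid and 2 flat libraries taken on day 7, and it covers every gene with enough counts, 15255 of 49585 in the deposited table. All cells came from planar dishes in high-glucose DMEM with biotin, pantothenate, antibiotics, methylcellulose and 10% calf serum. They were divided near confluence. Flat cultures had a daily medium change, and spheroids were seeded with about 20000 cells in 28 µL drops with part of the medium exchanged daily. The other 4 libraries had the same 2 culture forms with 10 µM troglitazone, 1 µg/ml insulin and, for the first 2 days, 250 nM dexamethasone and 10 nM triiodothyronine. No source used here says how many spheroids were pooled for a library. The series calls its samples independently prepared and does not name separate cultures, and p-values here reflect only how these libraries vary, which may be technical.

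Total RNA was sequenced, and levels are given in CPM, counts per 1000000 of the scaled library size, for flat replicates 1 and 2 and spheroid replicates 1 and 2. The 4 libraries held 21169390, 14017630, 12562723 and 12981380 counts, so that 1 CPM stood for 13.3 to 20.1 counts. Fold changes are log2 values, spheroid minus flat, with ± giving the model's standard error and n = 2 in each group. A gene was called at a Benjamini-Hochberg adjusted p under 0.05 in edgeR's quasi-likelihood test together with a change of at least 2-fold. The model was fitted to all 8 libraries. Where a call or count was lost on leaving out a library, that library is named by its form and number (flat 1, flat 2, spheroid 1, spheroid 2, or the induced ones). Such a fit leaves 1 library in that group, which is assumed to vary like the others.

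Hanging-drop culture removes the stiff plastic substrate, so that cells attach to each other and to the matrix that they make. In flat culture, fibroblasts spread, build actin stress fibres and lay down fibrillar collagen with the small proteoglycans that bind it. Fibroblasts also respond to injury, serum and cytokines with acute-phase proteins, chemokines and proteases, through transcription factors such as NF-kB, C/EBP, STAT3 and AP-1.

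In uninduced cells 827 genes were called higher and 613 lower in spheroids, 1440 or 9.44% of the 15255 tested (5.42% higher and 4.02% lower). List counts below are to be read beside these shares, and a count near them does not set a list apart. All 1440 had levels that did not overlap between the groups, but so did 73.3% of all genes tested, and the median change over all genes was 0.027 log2. Acute-phase genes (13 of 15 tested) and chemokines and cytokines (11 of 21) were among the increases. Genes of fibrillar matrix, small proteoglycans, contractile fibres and interferon response were among the decreases. The count was 552 without flat 1, 602 without flat 2, 637 without spheroid 1 and 810 without spheroid 2. It was 1963 in the 4 uninduced libraries alone and 2167 and 2170 without induced spheroid 1 and 2. The biological coefficient of variation was 0.326 in induced spheroids, against 0.11 in uninduced spheroids and 0.0469 and 0.0473 in uninduced and induced flat cultures, whereas the fit uses a single dispersion per gene for every group.

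The composition of the libraries moved with culture form. Each library pools many cells, so fewer cells of a type and less RNA per cell cannot be told apart. Mitochondrially encoded transcripts held 0.321 and 0.311% of counts in flat and 1.84 and 1.57% in spheroid libraries. Collagen genes held 5.61 and 5.76% against 3.19 and 3.41%, and ribosomal-protein genes 4.12 and 4.01% against 2.48 and 2.42%. The fibroblast and preadipocyte markers Pdgfra, Thy1, Col1a1, Vim, Dlk1 and Prrx1 were present in all 4 libraries, the lowest at 151.0 CPM (Thy1 in spheroid 1). Most adipocyte markers were near 0, with 0 counts of Lep and Cfd, 1 of Adipoq, 3 of Slc2a4 and 6 of Cidec over the 4 libraries. The adipocyte marker Plin1 went the other way with 191 counts, at 0.0498 and 0 CPM in flat and 5.82 and 8.07 CPM in spheroid libraries. Pan-leukocyte Ptprc and macrophage Adgre1 had 0 counts and Itgam 2. The macrophage markers Csf1r and Cd68 were present at low levels. Csf1r had 10.1 and 6.41 CPM in flat and 16.9 and 11.6 CPM in spheroid libraries, and Cd68 0.996 and 1.06 against 3.91 and 2.69 CPM.

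**Figure D1:**
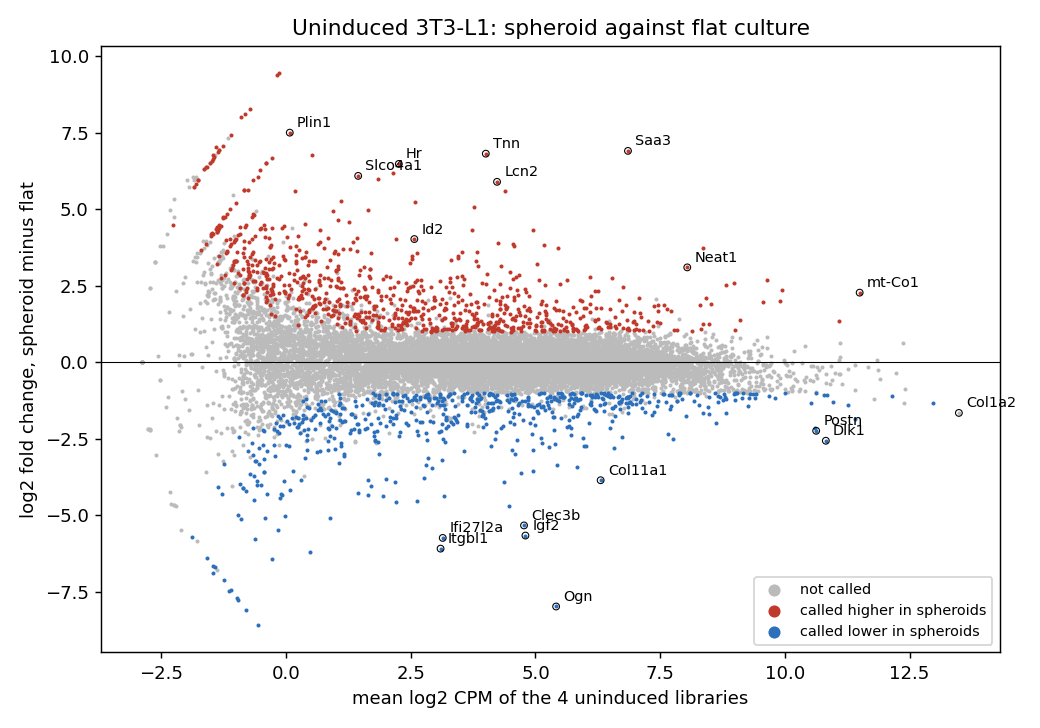
Each point is 1 of 15255 genes, with the mean log2 CPM of the 4 uninduced libraries on the x axis and the log2 fold change, spheroid minus flat, on the y axis. Genes called higher are red (827), genes called lower blue (613) and others grey. Saa3 (6.91) and Ogn (-7.98) stand at the upper and lower edge among well-expressed genes.

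Among 64 lists, chosen with earlier results of these data known, the lowest median belonged to the small leucine-rich proteoglycans. These extracellular proteins bind collagen fibrils and set their spacing. Of 14 tested genes of this family and of hyaluronan metabolism, 7 were called lower and 1 higher, with a median of -1.64 log2. Osteoglycin (Ogn, ENSMUSG00000021390, chromosome 13 from 49608046 to 49624501) had 633 and 704 CPM in flat and 2.14 and 3.13 CPM in spheroid libraries. Both spheroid libraries were far below both flat ones, a change of -7.98 ± 0.24 (adjusted p = 9.80e-06) or 253-fold. Fibromodulin (Fmod) had 28.5 and 27.6 against 1.33 and 1.09 CPM, flat against spheroid, and lumican (Lum) 87.7 and 100.3 against 4.72 and 10.7 CPM. Asporin (Aspn) had 775 and 791 against 189 and 209 CPM, a change of -1.98 ± 0.12. Decorin (Dcn), which binds type I collagen and growth factors, had 3082 and 3245 against 1135 and 1420 CPM (-1.31 ± 0.18, adjusted p = 0.00299). Biglycan (Bgn), its close relative, was not called at -0.54 ± 0.16. The hyaluronan receptor Cd44 rose by 1.04 ± 0.12, with 115 and 102 against 239.6 and 206 CPM. Cd44 was no longer called without flat 2 or spheroid 1 (a log2 change of 0.92 to 0.94). On leaving out any 1 of the 4 uninduced libraries 6 of the 14 were called lower.

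Matricellular and adhesive glycoproteins sit beside the fibrils and link them to cells. Of 23 tested, 7 were lower and 2 higher, with a median of -0.76. Periostin (Postn, ENSMUSG00000027750, chromosome 3 from 54361109 to 54391037) had 3339 and 3636 CPM in flat and 572 and 903 CPM in spheroid libraries. Sparc, a collagen-binding glycoprotein of bone and fibroblasts, had 4074 and 4039 against 1273 and 1777 CPM (-1.41 ± 0.20, adjusted p = 0.00353). The elastic-fibre proteins Mfap5 (-3.83 ± 0.41), Mfap4 (-2.99 ± 0.37) and Fbln5 (-2.16 ± 0.33) also fell. Osteopontin (Spp1) was higher in both spheroid libraries, with 418 and 357 against 1899 and 1135 CPM, and the libraries of this group differed from each other more than the flat pair did. Tenascin N (Tnn, ENSMUSG00000026725, chromosome 1 from 160085029 to 160153580), a matricellular protein of developing and healing tissue that was on none of the lists, had 1.49 and 1.43 CPM in flat and 207 and 125 CPM in spheroid libraries. Its change was 6.82 ± 0.29 (adjusted p = 6.27e-05). Fibronectin (Fn1) had 5303 and 5430 against 2546 and 2121 CPM and a change of -1.20 ± 0.49 (adjusted p = 0.118). Tenascin C (Tnc) had 91.8 and 77.9 against 462 and 250.0 CPM, a change of 2.07 ± 0.72 (adjusted p = 0.0775). Fn1 and Tnc were called in the 4 uninduced libraries alone, with limma-voom or without either induced spheroid library (adjusted p = 2.32e-08 to 0.0052 and 0.0199 to 0.0303). Postn and Fbln5 were no longer called without spheroid 1 (adjusted p = 0.0592 to 0.0614). The list had 4 lower without spheroid 1 and 5 without flat 1, flat 2 or spheroid 2, and 1 higher on leaving out any 1 of these.

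Among 8 tested fibrillar collagens, 2 were called lower and 1 higher, with a median of -1.13. The summed level of the list was 45070 and 46410 CPM in flat and 15970 and 18590 CPM in spheroid libraries. Type I collagen chains had 8506 and 8587 against 2966 and 3823 CPM (Col1a1) and 20167 and 20731 against 6015 and 6957 CPM (Col1a2). Their changes, -1.33 ± 0.51 (adjusted p = 0.104) and -1.66 ± 0.50 (adjusted p = 0.0531), did not pass in the fit of all 8 libraries. Type III collagen (Col3a1) had 12353 and 12983 against 4777 and 5366 CPM and was called (-1.32 ± 0.38, adjusted p = 0.0436). The minor fibrillar chain Col11a1 had 303 and 299 against 22.6 and 18.9 CPM, the largest decrease of the list (-3.86 ± 0.51). Col27a1 had 28.6 and 32.4 against 131 and 115 CPM (2.01 ± 0.41). Col1a1 was called in the 4 uninduced libraries alone, with limma-voom or without either induced spheroid library (adjusted p = 3.10e-07 to 0.00697). Col1a2 was called with DESeq2, in the 4 uninduced libraries alone, with limma-voom or without either induced spheroid library (adjusted p = 8.92e-10 to 0.0272). Col3a1 was no longer called without any 1 of the 4 uninduced libraries or either induced flat library or with no count filter (adjusted p = 0.081 to 0.221), nor was Col27a1 without any 1 of the 4 uninduced libraries or with no count filter (adjusted p = 0.0627 to 0.114). The list had 4 lower in the 4 uninduced libraries alone, with limma-voom or without either induced spheroid library, and 1 lower and 0 higher on leaving out any 1 of the 4 uninduced libraries.

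Other collagens included genes called in each direction and genes that were not called. Basement-membrane Col4a1 had 3549 and 3642 against 3716 and 3889 CPM (0.08 ± 0.21) and Col6a1 2675 and 2694 against 2194 and 2394 CPM (-0.23 ± 0.23), neither called. Anchoring-fibril collagen Col7a1 rose by 3.35 ± 0.27, with 3.63 and 2.41 against 33.6 and 29.1 CPM. Of 9 tested interstitial collagens outside the fibrillar group 2 were lower and 1 higher, and of 17 basement-membrane genes 1 was lower and 1 higher. Over all genes tested 4.02% were lower and 5.42% higher. Lysyl oxidase (Lox), which crosslinks collagen and elastin, had 3299 and 3342 CPM in flat and 561 and 946 CPM in spheroid libraries, a change of -2.14 ± 0.32 (adjusted p = 0.00405). Lox was left off the crosslinking list by a slip and was named for the size of its difference in CPM. Of 19 tested genes on that list 2 were lower and 1 higher, and the prolyl hydroxylase P4ha1 was not called (-0.68 ± 0.12). The interstitial list had 1 lower on leaving out any 1 of the 4 uninduced libraries or either induced flat library, and 4 in the 4 uninduced libraries alone, with limma-voom or without either induced spheroid library. Without 1 of the 4 uninduced libraries the crosslinking list had 1 to 2 lower and 0 higher, and the basement-membrane list had 0 in both directions. Transglutaminase 2 (Tgm2) fell by 2.91 ± 0.40.

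Matrix-degrading enzymes and their inhibitors moved both ways. Of 18 tested metalloproteinases and inhibitors 5 were higher and 4 lower. The inhibitor Timp1 had 89.3 and 94.6 CPM in flat and 327 and 339 CPM in spheroid libraries (1.86 ± 0.10, adjusted p = 1.39e-04). Stromelysin 2 (Mmp10) had 0.199 and 0.452 against 18.1 and 5.82 CPM, with 10 counts in all over both flat libraries and spheroid replicates that differed widely. Collagenase 3 (Mmp13) rose by 1.31 ± 0.14. Gelatinase A (Mmp2) had 6519 and 6806 against 2781 and 3413 CPM (-1.11 ± 0.22). The aggrecanase Adamts5 fell by 2.74 ± 0.33. In the plasminogen system, the urokinase receptor Plaur had 4.28 and 4.22 against 32.3 and 27.7 CPM (2.82 ± 0.42), whereas tissue plasminogen activator (Plat) fell by 1.08 ± 0.14. Mmp10 was no longer called without flat 1 (adjusted p = 0.0506), nor was Mmp2 without any 1 of the 4 uninduced libraries (adjusted p = 0.0573 to 0.115). Plaur was also not called without flat 1 or flat 2 (adjusted p = 0.0508 to 0.0546). Without 1 of the 4 uninduced libraries the metalloproteinase list had 2 to 4 higher and 0 to 1 lower.

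The 250 bases before the Mmp10 start hold an AP-1 motif, TGANTCA, the binding site of FOS and JUN proteins. It was found in 6.82% of 27025 RefSeq promoter windows of this length (build GRCm38.p6, both strands), and in 4 of 11 windows of genes called higher on the immediate early, plasminogen and metalloproteinase lists. A C/EBP motif, TTGCNNAA, was in 5 of the same 11 windows, that of Mmp10 included, and in 9.57% of all windows. Over the 503 windows of all genes called higher the shares were 7.55% for AP-1 and 8.95% for C/EBP. Over the windows of tested genes they were 4.3% and 7.2%. Of 25 windows of tested interferon-stimulated genes, which went the other way, 5 held AP-1 and 1 C/EBP. The lists were chosen with earlier results of these data known, and whether the motifs mark the increases was not tested. The AP-1 matches were in Mmp10, Mmp13, Plaur and Serpinb2. Serpinb2 was no longer called without any 1 of the 4 uninduced libraries (a log2 change of 4.111 to 5.909). The Mmp10 window on the plus strand is chr9:7502092-7502341, with the AP-1 match in capitals. It is shown because Mmp10 rose from near 0, and it was chosen after the matches were seen.
Mmp10: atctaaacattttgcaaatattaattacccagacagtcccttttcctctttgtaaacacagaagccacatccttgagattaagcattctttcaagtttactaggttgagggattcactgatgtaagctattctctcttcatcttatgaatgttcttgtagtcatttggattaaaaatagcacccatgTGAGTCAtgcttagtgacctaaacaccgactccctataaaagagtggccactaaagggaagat

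Several genes of contractile fibres fell. Of 27 tested genes of the contractile actin cytoskeleton 5 were lower and 0 higher, with a median of -0.35. Smooth-muscle actin (Acta2, ENSMUSG00000035783, chromosome 19 from 34241090 to 34255590), a marker of myofibroblasts, had 248 and 254 CPM in flat and 31.9 and 39.7 CPM in spheroid libraries (-2.81 ± 0.48, adjusted p = 0.00704). Regulatory myosin light chain Myl9 had 17 and 16.7 against 1.18 and 1.02 CPM (-3.93 ± 0.55), and calponin 2 (Cnn2) 348 and 368 against 139 and 156 CPM (-1.28 ± 0.11). Transgelin (Tagln) fell by 1.55 ± 0.22, but it overlaps the gene Gm48529 on the opposite strand, and whether strand was used in counting is not given in the sources used here. The changes of Actb (-0.15), Myh9 (0.21) and Actn1 (0.53) did not pass. Caveolar Cavin2 (-3.92 ± 0.32) and the stress-fibre adaptor Sorbs2 (-4.04 ± 0.41) fell, and vimentin (Vim) had 2691 and 2672 against 1233 and 1298 CPM (-1.08 ± 0.14). Acta2 was no longer called without spheroid 1 or spheroid 2 or with no count filter (adjusted p = 0.0513 to 0.0812).

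Genes that read out YAP and TAZ, coactivators that respond to cell spreading and tension, moved in both directions. Of 24 tested 3 were higher and 3 lower, with a median of -0.13. The matricellular targets Ccn1 (18.4 and 17.3 against 63 and 70.1 CPM, 1.90 ± 0.31) and Ccn2 (0.996 and 0.904 against 5.46 and 8.51 CPM, 2.86 ± 0.38) rose. Ankrd1 (-1.61 ± 0.31), the pathway regulator Amotl2 (-1.40 ± 0.19) and the TEAD cofactor Vgll3 (-1.20 ± 0.10) fell. Among 16 tested integrins 3 were higher and 1 lower. The fibronectin receptor chain Itga5 had 199.5 and 196 against 433 and 378 CPM (1.03 ± 0.16), and the shared chain Itgb1 was not called (-0.31 ± 0.10). Of 19 focal adhesion genes 1 was called, lower, and vinculin (Vcl) had 206 and 207 against 211 and 210.5 CPM. N-cadherin (Cdh2, -0.40 ± 0.10), connexin 43 (Gja1, -0.09 ± 0.25) and ZO-1 (Tjp1, 0.65 ± 0.13) were not called, and 1 of 11 cadherin and nectin genes and 1 of 11 junction genes were higher. Ccn1 was no longer called without flat 1 or flat 2 (adjusted p = 0.0621 to 0.0646), nor was Ankrd1 without any 1 of the 4 uninduced libraries (adjusted p = 0.0689 to 0.111). Itga5 was also not called without flat 1 or flat 2 (adjusted p = 0.0585 to 0.06) and without spheroid 1 (a log2 change of 0.93). Integrins had 0 calls without flat 1, flat 2 or spheroid 1, and YAP and TAZ genes 1 higher and 2 lower without flat 1 or flat 2.

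**Figure D2:**
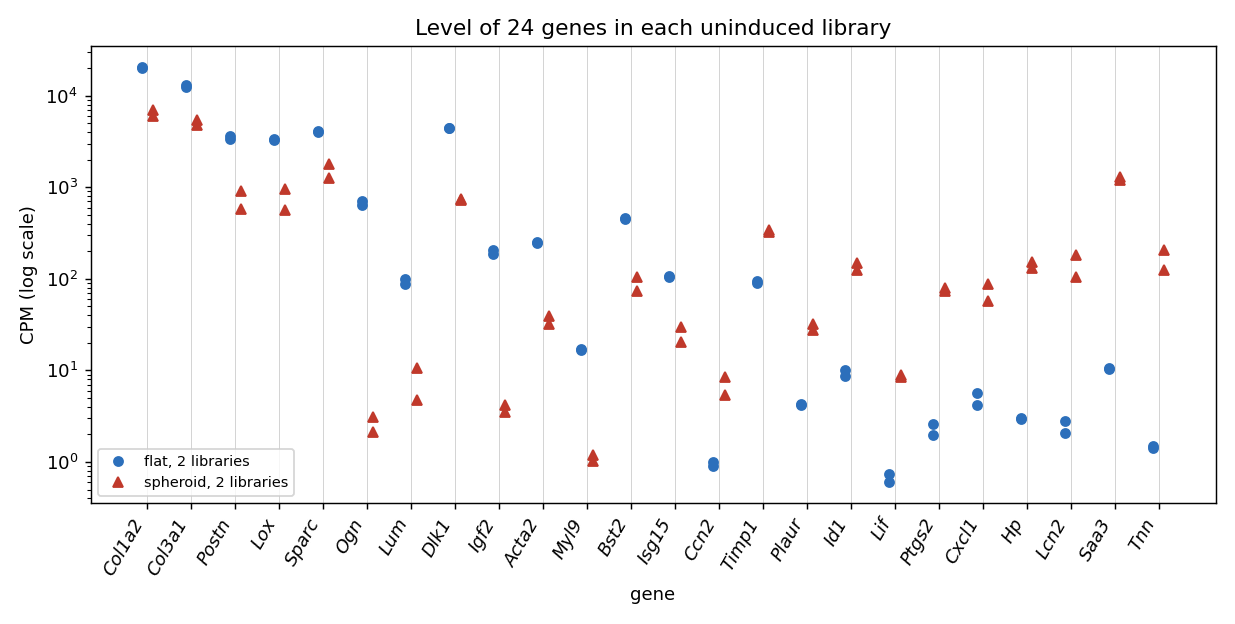
The y axis gives CPM on a log scale for 24 genes, chosen among those named in the text, with circles for the 2 flat and triangles for the 2 spheroid libraries. Genes of matrix, contractile fibres and interferon response on the left, with Dlk1 and Igf2, sit lower in both spheroid libraries, for example Dlk1 at 754 and 734 against 4413 and 4400 CPM. On the right Ccn2, Timp1, Id1, Lcn2, Saa3 and Tnn sit higher.

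Acute-phase genes had the largest median of all 64 lists, which were chosen with earlier results of these data known. These proteins are secreted in inflammation, chiefly by the liver, and are also made by fibroblasts and preadipocytes. Of 15 tested 13 were called higher and 1 lower, against 5.42% and 4.02% of all genes, with a median of 3.06 log2. Serum amyloid A3 (Saa3, ENSMUSG00000040026, chromosome 7 from 46711998 to 46715700) had 10.5 and 10.6 CPM in flat and 1212 and 1309 CPM in spheroid libraries. The flat libraries were nearly equal and both spheroid libraries were far above them, a change of 6.91 ± 0.16 (adjusted p = 3.25e-06) or 119.9-fold. Lipocalin 2 (Lcn2, ENSMUSG00000026822, chromosome 2 from 32384633 to 32388252), which sequesters bacterial iron chelators, had 2.09 and 2.79 CPM in flat and 104 and 182 CPM in spheroid libraries (5.89 ± 0.36). Haptoglobin (Hp), which binds free haemoglobin, had 2.99 and 2.94 against 152 and 133 CPM (5.58 ± 0.35). The protease inhibitor Serpina3n had 35.4 and 32.3 against 151 and 190.1 CPM (2.33 ± 0.23) and calgranulin A (S100a8) 0.448 and 0.226 against 5.16 and 5.74 CPM (3.92 ± 0.53). Pentraxin 3 (Ptx3) was the 1 gene called lower, at -2.13. Saa1 and Saa2, the Serpina3 genes and Orm1 and Orm2 are near-identical neighbours, so their separate values are uncertain. The list had 9 higher without flat 1 or flat 2, 10 without spheroid 1 or spheroid 2, and 0 lower on leaving out any 1 of these.

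Many chemokines and cytokines rose. Of 21 tested 11 were higher and 1, Ccl9 (-1.42), lower, with a median of 1.50. The neutrophil chemokines Cxcl1 (4.23 and 5.65 against 57.8 and 87.8 CPM, 3.89 ± 0.60) and Cxcl5 (44.2 and 48.4 against 198 and 314 CPM, 2.47 ± 0.24) were higher in both spheroid libraries. The monocyte chemokine Ccl2 had 50.8 and 50.2 against 210.1 and 208 CPM (2.05 ± 0.43). Cytokines that signal through gp130 were low in flat culture: Il6 had 0.348 and 0.301 against 2.8 and 4.51 CPM (3.44 ± 0.47), Lif 0.747 and 0.603 against 8.41 and 8.94 CPM (3.65 ± 0.28) and Il11 0.647 and 0.226 against 15.6 and 7.34 CPM (4.59 ± 0.53). Tnf, Il1b, Csf2 and Csf3 had too few counts to be tested. Cxcl1 was no longer called without flat 1 (adjusted p = 0.0625), nor was Ccl2 without any 1 of the 4 uninduced libraries or with no count filter (adjusted p = 0.0744 to 0.113). The list had 4, 5, 6 and 7 higher without flat 1, flat 2, spheroid 1 and spheroid 2.

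Further genes of the gp130 route, which leads to STAT3, were called. Of 13 tested 4 were higher and 1 lower: the ligand Clcf1 (13 and 13.5 against 94.1 and 77.5 CPM, 2.70 ± 0.18), the oncostatin M receptor Osmr (65.7 and 65.2 against 278 and 281 CPM, 2.10 ± 0.12), Stat3 itself (1.05 ± 0.11) and its feedback inhibitor Socs3 (1.22 ± 0.14) rose. The IL-11 receptor chain Il11ra1 fell by 1.36 ± 0.19. These 5 calls held in each of the 14 alternatives run. In the NF-kB pathway 5 of 21 were higher and 0 lower. Among them were the inhibitor Nfkbia (1.01 ± 0.18) and the related Nfkbiz (7.22 and 8.89 against 58.8 and 64.9 CPM, 2.95 ± 0.24). The subunit Nfkb1 was not called (0.42 ± 0.12). Nfkbia was no longer called without flat 1, flat 2 or spheroid 2 (adjusted p = 0.0621 to 0.0794) and without either induced flat library, with no count filter, with median-of-ratios sizes or with DESeq2 (a log2 change of 0.99 to 1.00). The NF-kB list had 2 higher without flat 1 or flat 2 and 3 without spheroid 2 or either induced flat library.

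Both cyclooxygenases, which start prostaglandin synthesis, rose. Cyclooxygenase 2 (Ptgs2, ENSMUSG00000032487, chromosome 1 from 150100031 to 150108227), the inducible enzyme, had 2.59 and 1.96 CPM in flat and 74.2 and 80.1 CPM in spheroid libraries (5.06 ± 0.87, adjusted p = 0.00753). Cyclooxygenase 1 (Ptgs1) had 219 and 209 against 512 and 503 CPM (1.25 ± 0.10). Prostaglandin D synthase (Ptgds) rose by 2.51 ± 0.25, prostacyclin synthase (Ptgis) fell by 1.21 ± 0.19, and prostaglandin E synthase (Ptges) was not called (0.36 ± 0.22). Immediate early genes, which serum and growth factors switch on within minutes, had 6 of 23 higher and 0 lower, with a median of 0.85. The AP-1 subunit Junb had 34 and 31.9 against 168 and 160.0 CPM (2.31 ± 0.38), Fosl1 9.81 and 6.41 against 46.4 and 49.2 CPM (2.54 ± 0.55) and the zinc-finger factor Egr3 1.59 and 1.51 against 11.7 and 9.6 CPM (2.77 ± 0.34), while Jun (0.87 ± 0.34) and Fos (1.53 ± 0.54, adjusted p = 0.0827) were not called. Fos was called with no count filter, with DESeq2, in the 4 uninduced libraries alone, with limma-voom or without either induced spheroid library (adjusted p = 4.83e-05 to 0.0433). Ptgs2 was no longer called without flat 1 or flat 2 or with no count filter (adjusted p = 0.0557 to 0.0777), nor was Ptgis without spheroid 1 (a log2 change of -0.93). Junb was also not called without flat 1 or flat 2 (adjusted p = 0.064 to 0.0665), nor was Fosl1 without any 1 of the 4 uninduced libraries or with no count filter (adjusted p = 0.0831 to 0.13). The immediate early list had 1 higher without flat 1 or flat 2, 2 without spheroid 1 or spheroid 2, 3 without either induced flat library or with no count filter, and 9 in the 4 uninduced libraries alone or without either induced spheroid library.

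Of 19 promoter windows matched to genes called higher on the acute-phase, chemokine and NF-kB lists, 3 held an NF-kB motif, GGGA, any 2 bases and TTCC, 7 a C/EBP motif, TTGCNNAA, and 5 an AP-1 motif. The shares over all 27025 windows were 1.17%, 9.57% and 6.82%, and over the windows of tested genes 1.2%, 7.2% and 4.3%. Over the 503 windows of all genes called higher they were 1.59%, 8.95% and 7.55%. Of 25 windows of tested interferon-stimulated genes, which went the other way, 2 held an NF-kB, 1 a C/EBP and 5 an AP-1 motif. An AP-1 or NF-kB match was therefore not confined to lists that rose. The lists were chosen with earlier results of these data known, and the related genes Saa1, Saa2 and Saa3 are among the C/EBP matches. Whether these motifs are more frequent among the increases was not tested. A match is a description, not a bound site. Cxcl1 is shown for its palindromic NF-kB match, which reads on both strands (plus strand, chr5:90890995-90891244), and Saa3 for a C/EBP match beside a large increase (minus strand, chr7:46715677-46715926), which reads as the motif on the opposite strand. Both were chosen after the matches were seen, and the matches are in capitals.
Cxcl1: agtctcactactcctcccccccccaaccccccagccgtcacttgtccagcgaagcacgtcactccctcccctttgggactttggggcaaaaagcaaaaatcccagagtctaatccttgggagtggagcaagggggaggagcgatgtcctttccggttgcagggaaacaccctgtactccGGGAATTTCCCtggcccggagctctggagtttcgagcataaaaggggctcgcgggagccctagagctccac
Saa3: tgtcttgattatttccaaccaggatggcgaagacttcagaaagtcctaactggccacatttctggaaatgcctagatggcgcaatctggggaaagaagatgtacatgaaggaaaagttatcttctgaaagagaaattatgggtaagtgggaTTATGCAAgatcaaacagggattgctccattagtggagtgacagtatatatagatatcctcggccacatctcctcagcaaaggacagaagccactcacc

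Interferon-stimulated genes went the other way. These genes are held at a basal level by interferon signalling and act in antiviral defence and antigen presentation. All 30 tested had log2 fold changes below 0, with a median of -1.11, and 7 were called lower and 0 higher, against 4.02% and 5.42% of all genes. The membrane protein tetherin (Bst2, ENSMUSG00000046718, chromosome 8 from 71534255 to 71537456) had 449 and 467 CPM in flat and 73.4 and 105 CPM in spheroid libraries, a change of -2.36 ± 0.27 (adjusted p = 0.00171) that held in each alternative run. The ubiquitin-like modifier Isg15 had 105 and 106 against 20.6 and 29.5 CPM (-2.08 ± 0.58, adjusted p = 0.0405). The transcription factors Irf7 (29.9 and 29.7 against 9.66 and 10.5 CPM) and Irf9 (60.6 and 64.7 against 24 and 30.8 CPM) fell by 1.56 ± 0.42 and 1.19 ± 0.22. Antigen-presentation genes fell as well: the immunoproteasome subunits Psmb8 (-2.01 ± 0.54) and Psmb9 (-1.39 ± 0.38), and B2m (2508 and 2616 against 1138 and 1290 CPM, -1.08 ± 0.13). The interferon-inducible Ifi27l2a, on none of the lists, had 60.4 and 62 against 1.11 and 1.16 CPM (-5.74 ± 0.18). Ifit1 had 148 and 137 against 53.2 and 59.1 CPM and was not called (-1.34 ± 0.73, adjusted p = 0.232). Ifit1 was called in the 4 uninduced libraries alone, with limma-voom or without either induced spheroid library (adjusted p = 1.13e-08 to 0.0223). Isg15, Psmb8 and Irf7 were no longer called without any 1 of the 4 uninduced libraries or either induced flat library or with no count filter (adjusted p = 0.0519 to 0.234), nor was Psmb9 without any 1 of the 4 uninduced libraries or either induced flat library (adjusted p = 0.074 to 0.19). Irf9 was also not called without flat 1, flat 2 or spheroid 1 (adjusted p = 0.0595 to 0.0927), nor was B2m without spheroid 1 (a log2 change of -0.99). The list had 17 lower in the 4 uninduced libraries alone or without either induced spheroid library, 16 with limma-voom, 4 with no count filter and 3 without either induced flat library. It had 2 without flat 1 or flat 2, 1 without spheroid 1 and 3 without spheroid 2.

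The interferon-stimulated response element, searched as GAAA, any 2 bases and GAAA, was found in 13 of 25 matched windows of these genes and in 3.05% of all windows. Over the 380 windows of all genes called lower the share was 6.05%. Among the listed genes called lower, Isg15, Bst2 and B2m held a match, and genes that were not called, such as Ifit1, Stat2, Oas1a and Rsad2, held one as well. Carrying this element is part of how the class is known. The windows of Bst2 (minus strand, chr8:71537473-71537722) and Isg15 (minus strand, chr4:156200819-156201068) hold 2 and 3 matches that overlap or adjoin, in capitals. They are shown because both genes were called lower, and no match was found in the windows of Irf7 and Psmb8.
Bst2: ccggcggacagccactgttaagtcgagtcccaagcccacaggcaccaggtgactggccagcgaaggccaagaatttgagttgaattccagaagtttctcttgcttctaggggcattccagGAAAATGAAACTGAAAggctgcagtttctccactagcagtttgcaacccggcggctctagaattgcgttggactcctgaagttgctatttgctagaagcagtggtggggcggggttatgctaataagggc
Isg15: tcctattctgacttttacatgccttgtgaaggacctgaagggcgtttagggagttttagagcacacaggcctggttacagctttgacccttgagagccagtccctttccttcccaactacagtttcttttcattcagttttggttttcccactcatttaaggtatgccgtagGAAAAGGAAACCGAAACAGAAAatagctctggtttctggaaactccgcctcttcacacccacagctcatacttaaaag

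Growth-factor genes split by family. Of 14 tested genes of IGF signalling 4 were lower and 0 higher, with a median of -0.83. Igf2 (ENSMUSG00000048583, chromosome 7 from 142650766 to 142666816), a fetal growth factor, had 186 and 205 CPM in flat and 4.2 and 3.49 CPM in spheroid libraries (-5.66 ± 0.32, adjusted p = 1.44e-04). The noncoding RNA H19, its imprinted neighbour, had 9.51 and 12.3 against 0.664 and 0.436 CPM (-4.29 ± 0.87). The insulin receptor substrate Irs1 fell by 1.13 ± 0.26, and Igf1 was not called (-0.38 ± 0.36). Angiogenic factors had 5 of 16 lower and 0 higher, including Vegfd (205 and 209 against 53.9 and 78 CPM, -1.65 ± 0.18) and the chemokine Cxcl12 (2332 and 2327 against 912 and 936 CPM, -1.33 ± 0.30). Vegfa, counted with the hypoxia genes, rose with 78.7 and 79 against 209 and 193 CPM (1.35 ± 0.10). H19 was no longer called without any 1 of the 4 uninduced libraries or with no count filter (adjusted p = 0.0655 to 0.108), nor were Irs1 and Cxcl12 without any 1 of the 4 uninduced libraries (adjusted p = 0.0946 to 0.138). IGF signalling had 1 lower without spheroid 1 and 2 without each of the other uninduced libraries, and angiogenic factors had 1 lower without flat 1, flat 2 or spheroid 1.

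The inhibitor-of-differentiation genes, direct targets of BMP receptors, rose together. Id1 (ENSMUSG00000042745, chromosome 2 from 152736251 to 152737410) had 10.2 and 8.74 CPM in flat and 125 and 147 CPM in spheroid libraries (3.84 ± 0.23, adjusted p = 1.60e-04). Id2 had 1.74 and 1.06 against 23.4 and 23.6 CPM (4.02 ± 0.51), Id3 11 and 10.3 against 90.2 and 108 CPM (3.22 ± 0.21) and Id4 2.79 and 2.19 against 16 and 16.4 CPM (2.69 ± 0.31). The BMP antagonist Chrdl1 fell, with 109.6 and 113 against 4.28 and 4.29 CPM (-4.70 ± 0.54). Bmp4 had 0 counts in both spheroid libraries and was at least 10.4-fold lower there, taking 3 counts over both libraries as the floor. Of 19 BMP genes tested 6 were higher and 3 lower. TGF-beta and activin genes had 5 of 21 higher and 1 lower: Tgfb1 (62.6 and 57.3 against 141 and 128 CPM, 1.17 ± 0.12), the feedback inhibitors Smad7 (2.02 ± 0.37) and Skil (1.69 ± 0.25) rose, and the activin antagonist follistatin (Fst) fell by 1.70 ± 0.27. Bmp4 and Smad7 were no longer called without any 1 of the 4 uninduced libraries (adjusted p = 0.0558 to 0.0969), nor was Skil without flat 1 or flat 2 (adjusted p = 0.0511 to 0.0545). Fst was also not called without spheroid 1 (adjusted p = 0.0548). BMP genes had 1 lower on leaving out any 1 of the 4 uninduced libraries, and TGF-beta genes 2 higher without flat 1 or flat 2 and 3 without spheroid 1 or spheroid 2.

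Genes of receptor tyrosine kinase signalling changed in both directions. Of 20 tested FGF and PDGF genes 6 were higher and 2 lower. The ETS factor Etv4 had 4.13 and 2.41 against 42.7 and 30.6 CPM (3.45 ± 0.29), the ERK phosphatase Dusp6 5.28 and 3.84 against 35.2 and 25.3 CPM (2.71 ± 0.27) and hepatocyte growth factor (Hgf) 37 and 33.6 against 135 and 132 CPM (1.92 ± 0.11), while the inhibitor Spry1 fell with 20.5 and 22.8 against 1.84 and 2.4 CPM (-3.34 ± 0.24). Among 12 EGF-family genes 2 were higher and 1 lower: epiregulin (Ereg) had 6.62 and 6.03 against 98.7 and 77.4 CPM (3.79 ± 0.46) and the receptor Egfr 25.5 and 28.3 against 10.8 and 8.58 CPM (-1.47 ± 0.31). Of 22 Wnt genes 5 were lower and 1 higher, with the receptors Fzd4 (-2.11 ± 0.26) and Fzd2 (-1.29 ± 0.16) and the secreted antagonist Dkk3 (-1.93 ± 0.23) lower and the nuclear factor Lef1 (6.07 and 5.13 against 23.4 and 23 CPM, 2.04 ± 0.25) higher. Egfr was no longer called without any 1 of the 4 uninduced libraries (adjusted p = 0.0779 to 0.114). FGF and PDGF genes had 3 higher without flat 1 or flat 2 and 4 without spheroid 1 or spheroid 2, EGF-family genes 1 higher without flat 1, flat 2 or spheroid 1, and Wnt genes 3 lower without flat 1 or spheroid 1.

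Transcripts of the mitochondrial genome, which encodes core subunits of the respiratory chain, were higher in spheroids. All 13 tested mitochondrially encoded transcripts had log2 fold changes above 0, and 9 were called higher and 0 lower, with a median of 2.06. Cytochrome oxidase subunit mt-Co1 had 1328 and 1311 CPM in flat and 6865 and 5892 CPM in spheroid libraries (2.27 ± 0.16, adjusted p = 2.80e-04), and the complex I subunit mt-Nd1 313 and 316 against 2121 and 1960 CPM (2.70 ± 0.18). Of 30 nuclear genes of the respiratory chain 0 were called in edgeR, DESeq2 or limma-voom (5 at an unadjusted p under 0.05 in edgeR), with a median of -0.28, and the difference between these lists was not tested. Cytochrome c (Cycs) was not called (0.61 ± 0.32). Mitochondrial isocitrate dehydrogenase (Idh2) was the 1 of 22 citrate cycle genes called, lower at -1.42 ± 0.14. Of 8 tested genes on a list of nuclear-retained and small nucleolar RNA host transcripts 4 were higher and 0 lower, and 5 had log2 changes above 0. The noncoding RNA Gm26917 was no longer called without any 1 of the 4 uninduced libraries (a log2 change of 3.56 to 3.91), nor was Kcnq1ot1 without flat 2 (1.58). Neat1 had 89.7 and 90.4 against 765 and 778 CPM (3.10 ± 0.10) and Malat1 162 and 167 against 759 and 652 CPM (2.10 ± 0.13). The host genes Gas5 (-0.11) and Snhg12 (-0.17) were among the 4 not called. Small nucleolar RNAs had 8 of 21 higher and 0 lower, and transcripts annotated as sense-intronic 11 of 25 higher and 0 lower. The part that nuclear and unspliced RNA had in these values was not tested.

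Oxygen-responsive genes moved in both directions. Of 23 tested hypoxia-inducible genes 3 were higher and 4 lower, with a median of -0.17. Adrenomedullin (Adm) had 13.1 and 12.3 against 0.59 and 0.654 CPM (-4.33 ± 0.48), Ndrg1 7.07 and 7.24 against 1.33 and 1.6 CPM (-2.28 ± 0.32) and the endoplasmic-reticulum oxidase Ero1l 226 and 213 against 93 and 113 CPM (-1.09 ± 0.13). Higher were Vegfa, described above, Angptl4 (107 and 111 against 327 and 399.7 CPM, 1.74 ± 0.13) and Pfkfb4 (1.02). Lactate dehydrogenase (Ldha, -0.07 ± 0.15) and the glucose transporter Slc2a1 (0.46 ± 0.33) were not called, and 2 of 22 glycolytic genes were higher and 1 lower. Gapdh is 1 of the 2 higher, and its annotated gene had 12.9 and 10.8 against 53.6 and 26.2 CPM and shares sequence with many pseudogenes, so its value is uncertain. Ero1l was no longer called without spheroid 1 (a log2 change of -0.96), nor was Gapdh without flat 1, flat 2, spheroid 1 or either induced spheroid library (adjusted p = 0.0553 to 0.0984). The hypoxia list had 2 lower without spheroid 1. Glycolytic genes had 0 higher without flat 1, flat 2 or spheroid 1 and 1 without spheroid 2 or either induced spheroid library, and 2 lower without flat 2 and 0 without spheroid 1.

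Several genes of cholesterol synthesis fell, and a pair of exporters rose. Of 26 tested genes 7 were lower and 2 higher, with a median of -0.85. The early enzyme Hmgcs1 (ENSMUSG00000093930, chromosome 13 from 119690379 to 119708260) had 113 and 105 CPM in flat and 39.4 and 48.9 CPM in spheroid libraries (-1.30 ± 0.13), the demethylases Msmo1 70.1 and 55.4 against 20.9 and 21.5 CPM and Cyp51 39.5 and 41.5 against 12.9 and 18 CPM, and the sterol sensor Insig1 55.6 and 51.9 against 18.4 and 23.6 CPM. The 2 called higher were the exporters Abca1 (1.66) and Abcg1 (0.498 and 0.603 against 8.7 and 5.67 CPM, 3.70 ± 0.38). The list had 1 higher on leaving out any 1 of the 4 uninduced libraries or with no count filter, and the call of Abcg1 held in each of the 14 alternatives. A sterol regulatory element, TCACNCCAC, was found in 1 of 6 matched windows of the 7 genes called lower and in 1.03% of all windows. It is the capitals in the Hmgcs1 window (plus strand, chr13:119690101-119690350), shown as the 1 match.
Hmgcs1: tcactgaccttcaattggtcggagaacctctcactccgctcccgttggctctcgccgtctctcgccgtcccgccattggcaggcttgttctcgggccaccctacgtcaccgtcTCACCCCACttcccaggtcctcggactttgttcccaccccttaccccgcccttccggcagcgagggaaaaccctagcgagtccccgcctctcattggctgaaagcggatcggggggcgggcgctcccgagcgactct

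Ribosomal-protein genes lay mostly below 0, and most of them under 2-fold. Of 32 tested 31 had log2 fold changes below 0, 7 were called lower and 0 higher, and the median was -0.90. Rpl30 had 441 and 462 against 181 and 195 CPM (-1.27 ± 0.11). Rpl3 (-0.99 ± 0.11, adjusted p = 0.00163) and Rps6 (-0.91 ± 0.10, adjusted p = 0.00168) passed the p threshold and fell just short of 2-fold. The elongation factors Eef1a1 (7441 and 7264 against 4056 and 4023 CPM, -0.86 ± 0.13) and Eef2 (-0.91 ± 0.14) were also under 2-fold. Many of these genes have processed pseudogenes that share their reads, and of 661 tested processed pseudogenes 46 were lower and 10 higher. Of the ribosome biogenesis genes 17 of 18 had log2 fold changes above 0, and the helicase Ddx21 was the 1 called, at 1.25 ± 0.20. Ddx21 was no longer called without flat 2 or spheroid 1 (adjusted p = 0.053 to 0.0661).

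**Figure D3:**
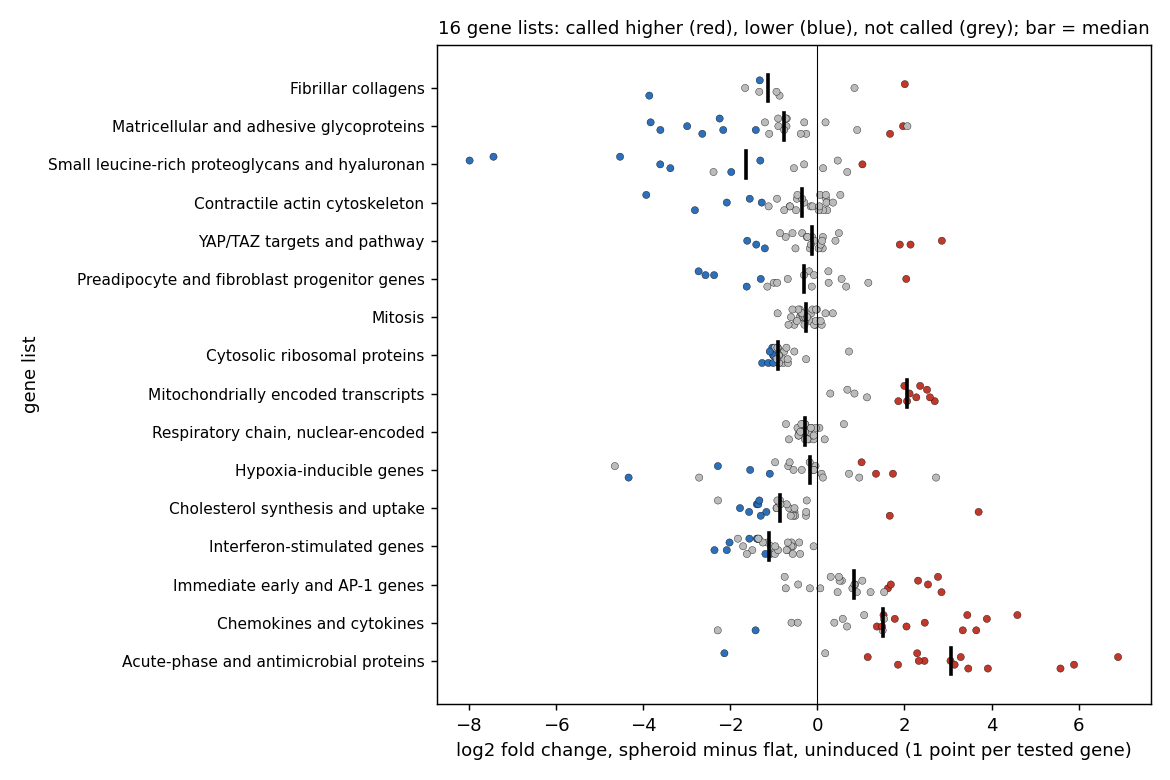
Each point is a tested gene of 16 lists, with its log2 fold change, spheroid minus flat, on the x axis, red where called higher, blue where called lower and grey otherwise, and black bars at the list medians. Acute-phase genes (median 3.06) and mitochondrially encoded transcripts (2.06) lie to the right, and small proteoglycans (-1.64) and interferon-stimulated genes (-1.11) to the left.

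Proliferation genes differed between the 2 spheroid libraries. Of 30 mitosis genes 0 were called in edgeR or DESeq2 (1 lower with limma-voom, and 0 at an unadjusted p under 0.05 in edgeR), with a median of -0.27. Every one of the 30 was higher in spheroid 1 than in spheroid 2, by a median of 0.672 log2, against 0.259 between the flat libraries and -0.013 over all genes in the spheroid pair. Topoisomerase Top2a had 96.9 and 81.1 CPM in flat and 131 and 56.9 CPM in spheroid libraries, so that 1 spheroid library lay above and the other below both flat ones. The proliferation antigen Mki67 had 44.6 and 48.1 against 58.3 and 32.4 CPM, with the same order. Cyclin D1 (Ccnd1) had 236 and 211 against 199 and 96.6 CPM. DNA replication genes had 1 of 30 higher and 0 lower, with Mcm2 at 0.15 ± 0.12 and Pcna at 0.31 ± 0.32. Cyclin D2 (Ccnd2) fell, with 716 and 670.1 against 274 and 323 CPM (-1.22 ± 0.17), and Myc rose, with 16 and 9.95 against 39.4 and 38.5 CPM (1.57 ± 0.29). The cell-cycle inhibitor Cdkn1a was not called (-0.42 ± 0.28). Myc was no longer called without flat 2, spheroid 1 or spheroid 2 (adjusted p = 0.0557 to 0.0777).

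Several genes of preadipocytes fell, while the adipogenic regulators Pparg and Cebpa were not called. Dlk1 (ENSMUSG00000040856, chromosome 12 from 109452823 to 109463336), the preadipocyte factor that blocks fat formation, had 4413 and 4400 CPM in flat and 754 and 734 CPM in spheroid libraries (-2.57 ± 0.37, adjusted p = 0.0037). The mesenchymal factors Osr1 (118 and 118 against 22.6 and 23 CPM, -2.37 ± 0.23), Osr2 (42.1 and 46.1 against 6.27 and 7.05 CPM, -2.72 ± 0.30) and Twist1 (-1.30 ± 0.17) also fell. Pdgfra was not called (-0.13 ± 0.20), and the progenitor marker Pi16 rose by 2.04 ± 0.23. Of 19 tested 5 were lower and 1 higher. Adipogenic transcription factors had 4 of 21 higher and 2 lower, with a median of -0.04. Pparg (32.7 and 33.7 against 28.9 and 34.3 CPM, -0.07 ± 0.12) and Cebpa (15.1 and 16.7 against 13.2 and 12.1 CPM, -0.32 ± 0.13) were not called, Cebpb had 83 and 154 against 255 and 320.4 CPM (1.28 ± 0.29) and Ebf1 fell by 1.43 ± 0.22. The others called were Klf5 (1.92), Egr2 (1.58) and Nr1h3 (1.11), higher, and Zfp521 (-1.20), lower. Egr2 was no longer called without any 1 of the 4 uninduced libraries (a log2 change of 1.437 to 1.695), nor was Klf5 without flat 1 (1.924). Zfp521 was also not called without any 1 of the 4 uninduced libraries or either induced flat library (-1.315 to -1.101) or with no count filter (-1.214). These changes of Egr2, Klf5 and Zfp521 stayed above 2-fold, and the calls were lost on the adjusted p. This list had 1 higher without flat 1 and 2 without spheroid 1 or spheroid 2, and 1 lower without flat 1, flat 2, spheroid 1 or either induced flat library. Cebpb was no longer called without flat 1, spheroid 1, spheroid 2 or either induced spheroid library, in the 4 uninduced libraries alone or with limma-voom (adjusted p = 0.0505 to 0.119).

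Some genes of lipid storage rose. Of 25 tested genes of lipid storage, uptake and lipolysis 5 were higher and 0 lower, with a median of 0.55, and the list summed to 2564 and 2613 CPM in flat and 2068 and 2562 CPM in spheroid libraries. Perilipin 1 (Plin1, ENSMUSG00000030546, chromosome 7 from 79720218 to 79732903), which coats droplets, had 0.0498 and 0 CPM in flat and 5.82 and 8.07 CPM in spheroid libraries. With 1 count in flat culture, its ratio was 232 (95% counting interval 41.2 to 9210, which covers counting error only). Seipin (Bscl2) had 1.64 and 1.88 against 6.27 and 6.4 CPM (1.85 ± 0.24), the triglyceride-forming enzyme Dgat1 28.6 and 28.2 against 58 and 61.9 CPM (1.08 ± 0.13) and hormone-sensitive lipase (Lipe) 13.1 and 14.4 against 34.5 and 28.9 CPM (1.21 ± 0.24). The fatty acid carrier Fabp4 was not called (24.7 and 20.6 against 38 and 33.2 CPM, 0.65 ± 0.32). The scavenger receptor Olr1, which takes up oxidised lipoprotein, had 1.29 and 0.528 against 38.7 and 34.6 CPM (5.23 ± 0.28), and the carboxylesterase Ces1f 0.398 and 0.377 against 19.5 and 30.5 CPM (5.97 ± 0.37). Lipe was no longer called without any 1 of the 4 uninduced libraries (adjusted p = 0.0505 to 0.115). The list had 3 higher without flat 1, flat 2 or spheroid 2.

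Other genes named for size alone belonged to hormones, receptors and transporters. The peptide hormone Cck had 0.448 and 0.452 CPM in flat and 36.6 and 29.6 CPM in spheroid libraries (6.17 ± 0.69), and the corepressor hairless (Hr) 0.597 and 0.301 against 57.9 and 28.3 CPM (6.48 ± 0.68). The organic anion transporter Slco4a1 had 0.249 and 0.301 against 25.2 and 12.8 CPM (6.09 ± 0.71). Spheroid 1 was above spheroid 2 for all 3, and both were far above flat culture. Tetranectin (Clec3b), a plasminogen-binding lectin, had 165 and 183 against 3.1 and 5.53 CPM (-5.33 ± 0.43), the integrin-like Itgbl1 68.1 and 67.9 against 1.33 and 0.654 CPM (-6.09 ± 0.32) and the angiotensin receptor Agtr2 21.8 and 24.2 against 0.369 and 1.53 CPM (-4.58 ± 0.54). The prokineticin receptor Prokr1 fell by 4.38 ± 0.58. These 7 calls held in each of the 14 alternatives run. Pleiotrophin (Ptn), a heparin-binding growth factor, had 5115 and 5270 against 1256 and 1590 CPM (-1.87 ± 0.34), and complement C3 1303 and 1406 against 3149 and 3791 CPM (1.36 ± 0.28). Ptn and C3 were no longer called without any 1 of the 4 uninduced libraries (adjusted p = 0.0566 to 0.122).

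Markers of other cell types were low in both forms. Of 14 macrophage and leukocyte genes 6 were tested, 1 higher (Cd14, 2.16 ± 0.31) and 1 lower (Lyz2, -2.75 ± 0.55), and the list summed to 29.5 and 22.2 CPM in flat and 67.3 and 65.2 CPM in spheroid libraries, with 5 members at 0 in all 4. Of 12 endothelial genes 4 were tested, 1 higher (Flt1, 1.58 ± 0.28) and 2 lower. Tek had 0 counts in both spheroid libraries and was at least 7.91-fold lower there. That list summed to 10.9 and 11.5 against 24.3 and 24.9 CPM. Of 14 muscle genes 1 of 5 tested was higher, troponin T2 (Tnnt2), with 5.43 and 4.75 against 67.1 and 23 CPM. Epithelial genes had 0 of 10 higher and 3 lower, with sums of 16 and 15.5 CPM in flat and 20.3 and 13.6 CPM in spheroid libraries. They had 0 lower without flat 1 and 1 without flat 2 or spheroid 1, and the endothelial list had 0 calls on leaving out any 1 of the 4 uninduced libraries. Lyz2 was no longer called without flat 1, flat 2 or spheroid 2 (adjusted p = 0.0633 to 0.101), nor was Flt1 without any 1 of the 4 uninduced libraries (adjusted p = 0.0602 to 0.0967). Tek was also not called without flat 2, spheroid 1 or spheroid 2 (adjusted p = 0.0863 to 0.11), nor was Tnnt2 without flat 1 or flat 2, with no count filter or in the 4 uninduced libraries alone (adjusted p = 0.0526 to 0.076).

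The spheroid effect was also measured with induction. Both effects came from the same fit of 8 libraries with a single dispersion per gene, so their calls are not independent. The induced libraries share no sample with the uninduced ones. There 1892 genes, 12.4%, were called, 1059 higher (6.94%) and 833 lower (5.46%), and 924 were called in the same direction in both conditions, 64.2% of the uninduced and 48.8% of the induced calls. A difference between the effects was called for 58 genes, 0.380%, with 52 more positive without induction (0.341%) and 6 more negative (0.0393%). Plin1 rose in uninduced spheroids but had 254 and 255 against 116 and 107 CPM, flat against spheroid, with induction. The difference of the log2 effects was 8.69 (adjusted p = 0.00139). Its size is uncertain, since uninduced flat culture held 1 count of Plin1, and it ran from 8.08 to 10.8 over the alternatives. Lcn2 had 30.6 and 33.5 against 56 and 79.9 CPM with induction, so that the effects were 5.89 and 1.08, with a difference of 4.81 (adjusted p = 0.0109). For Saa3 they were 6.91 and 4.90 (difference 2.01, adjusted p = 0.0131). Cebpa did not pass uninduced (-0.32) and was lower in induced spheroids (-2.79), a difference of 2.46 (adjusted p = 0.00316). Tagln changed by -1.55 without and 0.51 with induction (difference -2.06, adjusted p = 0.0483), with the overlap named above. Without flat 1 or flat 2 there were 2 differences called, 9 without spheroid 1, 7 without spheroid 2, and 1 and 6 without induced flat 1 and 2. There were 586 and 686 without induced spheroid 1 and 2. Only the difference of Plin1, among the genes in this paragraph, was called in each of the 13 alternatives in which it was fitted.

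**Figure D4:**
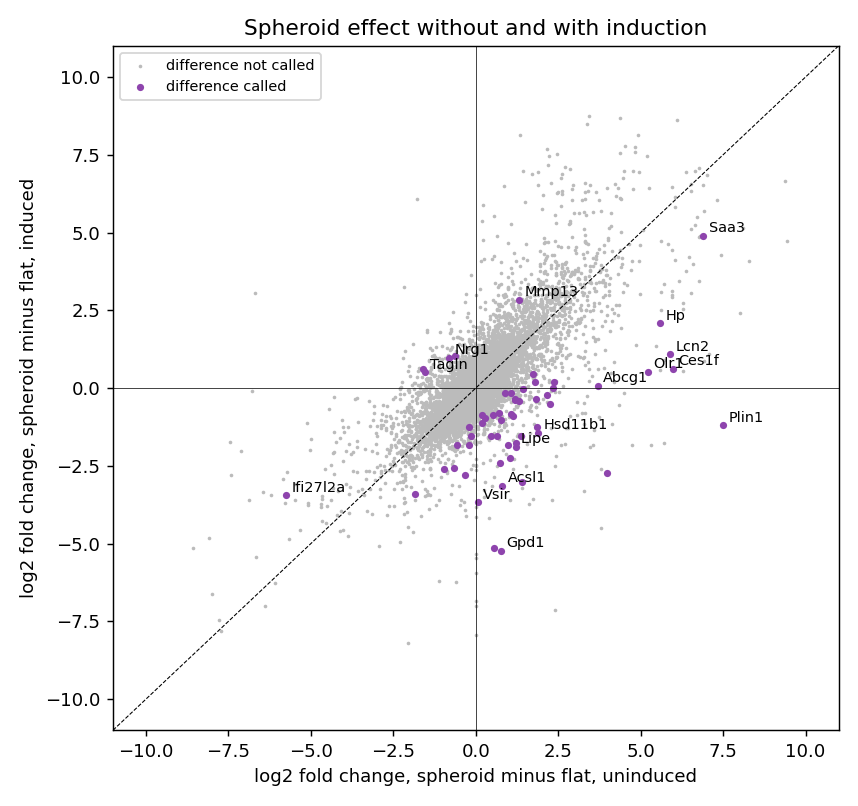
The x axis gives the log2 fold change, spheroid minus flat, without induction and the y axis with induction, 1 point per gene of 15255, and the dashed line marks equal effects. The 58 genes with a called difference are purple, and most lie below the line, among them Plin1 (7.50 and -1.19), Lcn2 (5.89 and 1.08) and Gpd1 (0.77 and -5.24). The uninduced value of Plin1 rests on 1 count in flat culture.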

How the data were processed

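Total RNA from flat and spheroid 3T3-L1 cultures was made into directional libraries, per the labels. The authors trimmed reads with Trimmomatic 0.38, aligned them to mm10 with HISAT2 2.1.0 and deposited raw featureCounts 1.6.3 counts per gene, per the submitters' processing notes. For the annotation release, parameters and strand setting nothing is stated in the labels. Column replicates 2 and 3 of uninduced flat culture are titled 1 and 2.

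Genes passing edgeR's filterByExpr (minimum count 10) were normalised by TMM and tested with edgeR 4.0.16 (R 4.3.3, robust quasi-likelihood, 1 mean per group, 8 libraries, 11839374 to 21169390 counts each). Standard errors are the log2 change over the root of F. Symbols and positions come from GENCODE (GRCm38), promoters from RefSeq. Genes were named by size, list membership, key genes of the lists, difference in CPM and called differences from the induced effect. Lists and members were chosen with earlier results of these data known. Lox and Bax were left off their lists by a slip. Alternatives were median-of-ratios sizes, no filter, DESeq2 1.42.0, limma-voom (limma 3.58.1) with group weights, the 4 uninduced libraries alone, a replicate block and leaving out each library. Some genes tested are not reported here.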

Additional observations from a re-analysis of the deposited data

Results flagged for a closer look

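For the genes below the spheroid effect without induction differed from that with induction by edgeR's interaction test (Benjamini-Hochberg adjusted p under 0.05 and at least 2-fold), given as the log2 difference, uninduced minus induced. Perilipin 1 (Plin1) differed by 8.69, and its difference was called in 13 of 13 alternatives. Its size is uncertain, since Plin1 had 0.0498 and 0 CPM in uninduced flat culture. Other genes of lipid storage and handling were Gpd1 (6.01), Ces1f (5.35), Olr1 (4.70), Acsl1 (3.96), Abcg1 (3.63), Lipe (3.10), Scd1 (2.17), Dgat1 (1.90) and Angptl4 (1.27). Acute-phase genes were Lcn2 (4.81), Hp (3.50), Serpina3n (2.34) and Saa3 (2.01). The immune checkpoint protein Vsir differed by 3.74, the cortisone reductase Hsd11b1 by 3.33 and the adipogenic regulator Cebpa by 2.46. Differences below 0 were those of Ifi27l2a (-2.30), Tagln (-2.06), neuregulin 1 (Nrg1, -1.77), the ectodysplasin receptor Eda2r (-1.64) and Mmp13 (-1.53). Of 13 alternatives, Olr1 was called in 12, Acsl1, Cebpa and Scd1 in 10, Ces1f and Lcn2 in 9, Dgat1, Hp, Hsd11b1, Lipe, Nrg1, Saa3 and Vsir in 7, and the others in 6. Each difference kept its sign in all 13.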

How the results depend on the processing

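Under the 14 alternatives 0 of the reported calls changed sign. The 1440 genes called in uninduced cells ranged from 552 to 2170 on leaving out 1 library, with 279 to 1285 higher and 268 to 885 lower. With limma-voom 1244 genes were higher, 839 lower. The 58 called differences from the induced effect ranged from 1 to 686 on leaving out 1 library and were 209 with no count filter, 163 with DESeq2 and 107 with limma-voom. Of 250 named calls, 129 were kept in all 14 alternatives, and 74 to 100 were lost without 1 of the uninduced libraries. Such a fit has fewer libraries in the contrast, and the cause of other changes was not tested. Same-numbered uninduced flat and spheroid libraries had deviations that correlated at 0.0265, and over all 6 pairs of groups the correlations ran from -0.00619 to 0.206, the highest between uninduced and induced spheroids. No label says that a number marks a shared culture or day, so the numbers were not taken to pair the libraries. With the replicate number as a block, 1382 genes were called (798 higher, 584 lower), 39 differences were called, and 4 of the 250 named calls were lost, those of Col3a1, Gclc, Elovl6 and Krt80 (adjusted p = 0.0506 to 0.0699). With 2 libraries per group, genes under the count filter, such as Tnf and Il1b, could not be compared at this depth.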

Other observations

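Among genes of amino acid supply Slc7a5, Slc1a5 and Phgdh fell and Slc1a3 rose. Of 19 tested genes of the amino acid and integrated stress response 3 were lower and 0 higher in spheroids: the leucine transporter subunit Slc7a5 (150.0 and 142 against 38 and 59.6 CPM, flat against spheroid, -1.58 ± 0.22), the serine synthesis enzyme Phgdh (-1.16 ± 0.13) and the pseudokinase Trib3 (-1.42 ± 0.24). The glutamine transporter Slc1a5 had 105 and 101 against 33.4 and 35.6 CPM (-1.58 ± 0.12). Higher transporters were the glutamate transporter Slc1a3 (3.83 and 4.97 against 47.6 and 39.1 CPM, 3.31 ± 0.47), the transferrin receptor Tfrc (26.1 and 18.4 against 87.2 and 67.3 CPM, 1.79 ± 0.26) and the zinc and iron importer Slc39a14 (1.73 ± 0.11), and 3 of 16 solute carriers were higher and 1 lower. Of 20 antioxidant genes 2 were higher and 0 lower, the mitochondrial superoxide dismutase Sod2 (1.12 ± 0.20) and the glutathione enzyme Gclc (1.74 ± 0.52). Trib3 and Slc1a3 were no longer called without flat 1 (adjusted p = 0.0529 to 0.0564), nor was Sod2 without flat 1, flat 2 or spheroid 2 (adjusted p = 0.06 to 0.08). Gclc was also not called without any 1 of the 4 uninduced libraries or either induced flat library, with no count filter or with median-of-ratios sizes (adjusted p = 0.0508 to 0.218). The amino acid list had 2 lower without flat 1 and 6 without spheroid 2.

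The glucocorticoid-responsive gene Tsc22d3 (GILZ) fell, with 69.7 and 70.2 against 21.6 and 24 CPM (-1.62 ± 0.10), while Hsd11b1, whose enzyme regenerates active glucocorticoid, rose with 7.91 and 8.14 against 32.7 and 27 CPM (1.89 ± 0.29). Of 10 tested genes of this list 1 was higher and 2 lower. The Notch target Hey1 (2.31 ± 0.52) and the receptor Notch4 (1.51 ± 0.35) were the 2 of 10 Notch genes called, both higher, and the clock output factors Dbp (-1.05 ± 0.17) and Hlf (-1.46 ± 0.19) the 2 of 16 clock genes called, both lower. Hsd11b1 was no longer called without flat 1 or flat 2 (adjusted p = 0.0523 to 0.0586), nor were Hey1 and Notch4 without any 1 of the 4 uninduced libraries (adjusted p = 0.0582 to 0.162). Dbp was also not called without flat 1 (adjusted p = 0.0546) and without spheroid 2 (a log2 change of -0.88). Of 19 genes of the unfolded protein response and 21 of fatty acid oxidation 0 were called in edgeR, DESeq2 or limma-voom, with 6 of each list at an unadjusted p under 0.05 in edgeR.

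Gene classes of the annotation differed in how often they were called. Of 12382 protein-coding genes 598 were higher and 504 lower (4.83 and 4.07%), and of 380 long intergenic noncoding RNAs 50 were higher and 11 lower (13.2 and 2.89%). Of 290 loci annotated as still to be experimentally tested 49 were higher and 10 lower. These shares were not compared by a test.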
